A study of Mus musculus with 6 samples.

Results

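The genes described here are 10 genes of the NRF2 and KEAP1 pathway and of the thioredoxin system, chosen by gene symbol: Nfe2l2, Keap1, Nqo1, Hmox1, Srxn1, Txnrd1, Osgin1, Txn1, Prdx1 and Gpx4. All 10 were found among the 21878 symbols of the deposited table, and all 10 passed the filter of a mean of at least 1 FPKM that left 10624 genes for testing. FPKM is the number of fragments of a gene divided by its length and by the mapped fragments of its library. The values come from RNA sequencing of B16F10, an established mouse melanoma line labelled WT, grown in DMEM (3 libraries, whose titles carry the unexplained code HG) or in RPMI-1640 (3 libraries). Both media had 10% fetal bovine serum and antibiotics. The labels' treatment text also describes a course of adipogenic differentiation, without saying whether any of these libraries received it, and gives every library a time of 0. The titles also hold a code, 3 for DMEM and 1 for RPMI-1640, whose meaning and the medium cannot be told apart. The title of DMEM replicate 3 ends in L3 and all others in L2, codes that are not explained. Library totals recovered from the values ran from 36960000 to 46404000 reads. Their scale is the commonest total implied by 963 genes with a single annotated transcript, and 110 of these shared it. Lengths read from the FPKM steps rest on the same scale. The melanocyte markers Mitf, Pmel, Tyr, Tyrp1, Dct, Mlana, Sox10 and Gpr143 summed to between 10702 and 13246 FPKM in every library. The 8 adipocyte markers summed to at most 0.614 FPKM, with 4 of them, Fabp4, Cebpa, Lep and Cfd, at 0 in all libraries. Marker lists of fibroblasts, leukocytes, epithelium and endothelium summed to at most 5.97 FPKM.

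NRF2, encoded by Nfe2l2, is a transcription factor that switches on genes of detoxification and of defence against oxidants. In unstressed cells KEAP1 holds it and presents it to a CUL3 ubiquitin ligase for degradation; oxidants and electrophiles modify KEAP1 cysteines, NRF2 escapes, pairs with a small MAF protein and binds antioxidant response elements. Much of this control acts on the protein, so transcript levels of Nfe2l2 and Keap1 do not measure NRF2 activity. In the thioredoxin system, electrons pass from NADPH through thioredoxin reductase (TXNRD1) to thioredoxin (TXN1) and on to peroxiredoxins such as PRDX1, which reduce peroxides, while sulfiredoxin (SRXN1) repairs peroxiredoxins that were oxidized too far. GPX4 reduces lipid hydroperoxides in membranes and protects cells from ferroptosis; GPX4 and TXNRD1 are selenoproteins.

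Antioxidant response elements lie in many promoters, so the start regions of the genes were read for short motifs. RefSeq promoter windows (GRCm38.p6, 250 bases before to 50 after a start) were matched for 9 of the 10 genes, 14 windows in all. Hmox1 had no window, so its promoter was not read. Of these, 4 windows, each of a different gene, held the element's core TGACNNNGC on either strand; 12.4% of all 32851 windows held it. The AP-1 motif TGANTCA, whose letters can overlap the element, was found in 3 windows (7.8% of all), the GC box GGGCGG in 11 (35.7%) and the ATF4-type motif TGATGNAA in 0 (4.0%). Some Gpx4 windows overlap, so the same GC boxes count more than once. Counted by gene, 4 of 9 held the core (14.0% of all 27025 genes), 3 the AP-1 motif (9.0%), 9 the GC box (38.2%) and 0 the ATF4-type motif (4.5%). The windows with the core are shown, 5′ to 3′ on the strand of the gene, because they include Srxn1 and Txnrd1, the genes with the largest fall and rise among the 10 as deposited (with the length and GC trend removed Osgin1 rose most); capitals mark matches to the core or to the AP-1 motif.
Srxn1, chr2:152105274-152105573, plus strand: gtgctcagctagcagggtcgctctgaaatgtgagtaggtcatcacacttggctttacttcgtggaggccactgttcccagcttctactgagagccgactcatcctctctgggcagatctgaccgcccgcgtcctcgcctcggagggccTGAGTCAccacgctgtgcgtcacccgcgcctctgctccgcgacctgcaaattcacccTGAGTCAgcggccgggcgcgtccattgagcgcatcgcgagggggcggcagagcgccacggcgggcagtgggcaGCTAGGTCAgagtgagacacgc
Prdx1, chr4:116685349-116685648, plus strand: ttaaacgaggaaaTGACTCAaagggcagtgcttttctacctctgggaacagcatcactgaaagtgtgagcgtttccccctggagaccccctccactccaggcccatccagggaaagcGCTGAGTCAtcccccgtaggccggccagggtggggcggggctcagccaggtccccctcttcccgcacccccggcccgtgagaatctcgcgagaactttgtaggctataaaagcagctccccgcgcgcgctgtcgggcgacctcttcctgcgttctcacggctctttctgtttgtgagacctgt
Txnrd1, chr10:82858956-82859255, plus strand: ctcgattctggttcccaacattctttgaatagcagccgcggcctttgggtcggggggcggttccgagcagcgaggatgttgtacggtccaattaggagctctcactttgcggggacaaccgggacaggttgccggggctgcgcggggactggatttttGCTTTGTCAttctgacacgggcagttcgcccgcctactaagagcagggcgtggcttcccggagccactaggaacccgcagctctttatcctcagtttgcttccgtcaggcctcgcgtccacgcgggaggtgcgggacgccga
Nfe2l2, chr2:75704614-75704913, minus strand: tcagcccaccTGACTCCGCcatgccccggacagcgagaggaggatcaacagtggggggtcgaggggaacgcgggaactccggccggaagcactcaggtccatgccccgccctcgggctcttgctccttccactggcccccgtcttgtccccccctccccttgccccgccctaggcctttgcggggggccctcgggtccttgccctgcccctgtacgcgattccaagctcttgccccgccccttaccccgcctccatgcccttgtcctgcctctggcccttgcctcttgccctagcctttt
In the Srxn1 window the AP-1 letters occur at 102 and 45 bases before the start, and the core occurs on the opposite strand beyond the start. The match at 45 bases is followed by gc, so it differs from the core only in a G where the core has C. Only exact matches to TGACNNNGC were counted as the core. In Prdx1 the core and an AP-1 match overlap around 131 bases before the start. The Txnrd1 window is 1 of 3 for that gene, and only this one held the core. A match is a description of these letters, and its absence in a window says nothing about sites elsewhere.

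Between the media, Srxn1, Hmox1, Gpx4 and Prdx1 were lower in RPMI-1640 and Nfe2l2 and Txnrd1 were higher, while Keap1, Nqo1, Osgin1 and Txn1 did not pass the test. Genes were tested with limma on log2(FPKM + 1), and calls were made at a Benjamini-Hochberg adjusted p under 0.05 over all genes tested. So 2 of the 10 were called higher and 4 lower, where 76.0% of all genes tested were called, 40.6% higher and 35.4% lower; 6 of 10 is no more than that background. The same 6 genes had no overlap between the media, against 79.0% of all genes. The median log2 fold change (RPMI-1640 minus DMEM) of the 10 was -0.058, beside 0.033 over all genes. Scaling to a common total moved the median of all genes by 0.16; then 4 of the 10 were called higher and 3 lower, against 76.5% of all genes (51.5% higher, 25.0% lower). Quantile normalization gave 4 higher and 4 lower, against 76.1% (38.4% and 37.7%), and removal of the length and GC trend 4 higher and 3 lower, against 73.9% (37.1% and 36.8%). With the replicate number as a block, 3 were higher and 5 lower, against 79.4% (42.3% and 37.0%). By exact permutation of 3 and 3 libraries (two-sided) p cannot go below 0.1, and each of the 6 called genes reached it. In bulk RNA, fewer cells of a type and less RNA per cell cannot be told apart. Whether the replicates were grown apart is not in the labels, so p-values reflect only how these libraries vary, which may be technical.

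**Figure D1:**
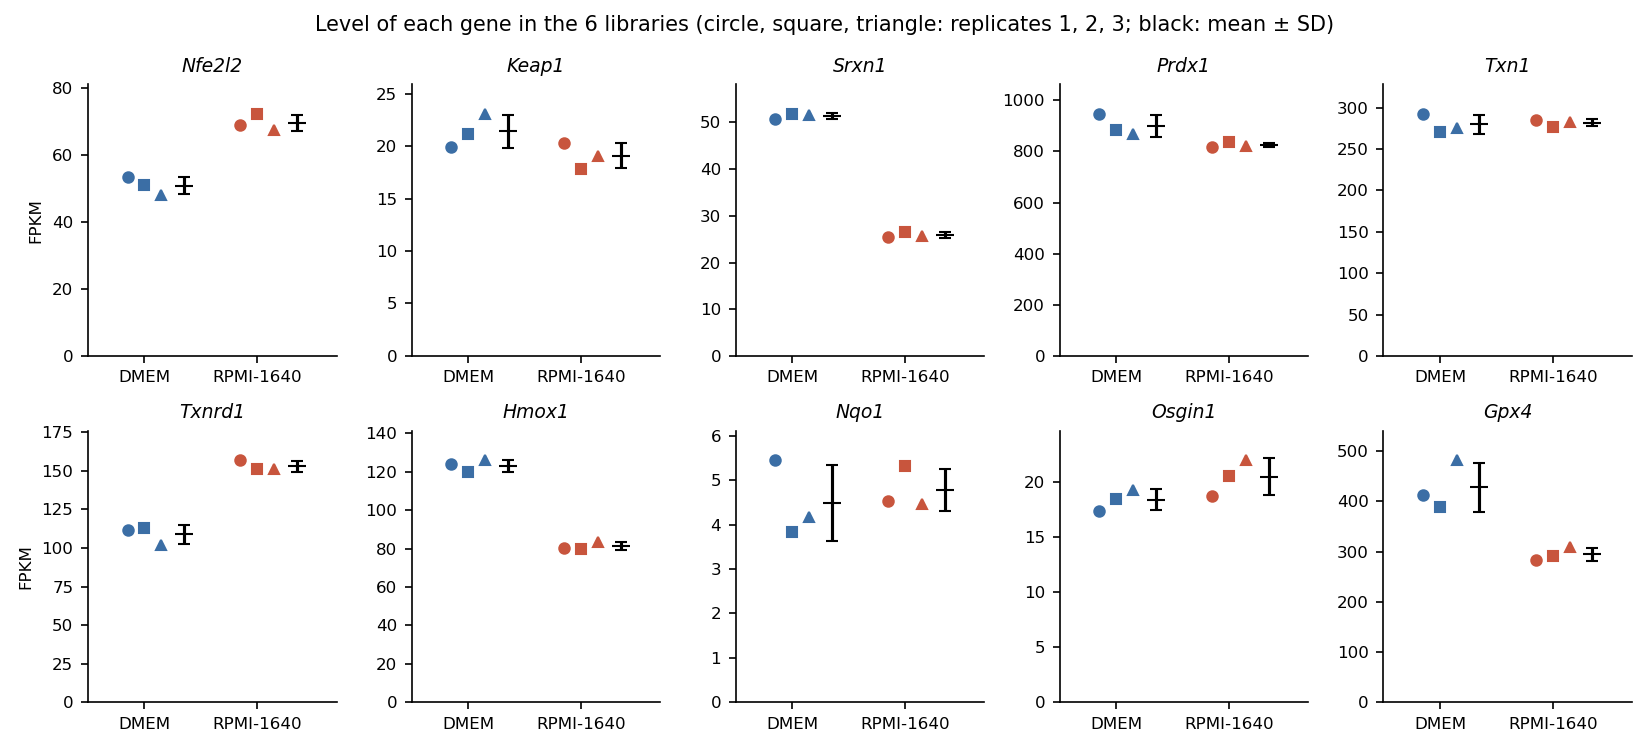
FPKM of each of the 10 genes in the 3 DMEM and 3 RPMI-1640 libraries, with the mean ± SD in black (y axes start at 0 and differ between panels). Srxn1 stands at 50.7 to 51.9 FPKM in DMEM and 25.5 to 26.6 in RPMI-1640, while the values of Keap1, Nqo1, Osgin1 and Txn1 overlap between the media.

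Nfe2l2 had 53.4, 51.0 and 48.2 FPKM in DMEM and 68.9, 72.4 and 67.6 FPKM in RPMI-1640. All RPMI-1640 libraries lay above all DMEM libraries. The means were 50.9 ± 2.56 and 69.6 ± 2.48 FPKM (SD, n = 3 each), 1.37-fold higher in RPMI-1640, with a log2 fold change of 0.45 (SE 0.052, 95% interval 0.33 to 0.56, limma adjusted p = 1.11e-05). The gene (ENSMUSG00000015839.6) is at chr2:75675513-75704641 (minus strand, GRCm38), and its values rest on 4711 to 8203 reads per library. Keap1, the sensor that marks NRF2 for degradation, was at 19.9, 21.2 and 23.1 FPKM in DMEM and at 20.3, 17.8 and 19.1 FPKM in RPMI-1640. The lowest DMEM library lay below the highest RPMI-1640 library, and the log2 fold change of -0.16 (SE 0.067, unadjusted 95% interval -0.31 to -0.0091) did not pass (limma adjusted p = 0.0516). Keap1 sat close to the threshold: it passed as lower after quantile normalization (-0.21, adjusted p = 0.0169) and with limma-voom (-0.17, 0.045), and its adjusted p was 0.0313 with the replicate number as a block, 0.0257 without DMEM replicate 1 and 0.0343 without RPMI-1640 replicate 1, and its sign turned with the length and GC trend removed (0.037, adjusted p = 0.551). Keap1 (ENSMUSG00000003308.15) is at chr9:21229730-21239361 (minus strand). An antisense gene, Gm16754, overlaps Keap1 and holds 11.8% of the 32-base words of its longest transcript; whether counting used strand is not given in the sources used here.

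The ratio of 2 genes within a library does not change when all values of that library are multiplied by 1 factor, but it does change with removal of the length and GC trend. Nfe2l2 stood at 2.68, 2.40 and 2.09 times the FPKM of Keap1 in the DMEM libraries and at 3.40, 4.06 and 3.53 times in the RPMI-1640 libraries. The ratio was higher in every RPMI-1640 library, with means of 2.39 ± 0.296 and 3.66 ± 0.350 (SD, n = 3). This 1.53-fold difference is given as a description with no test. It was smaller with the trend removed, where Nfe2l2 and Keap1 had log2 fold changes of 0.36 and 0.037, against 0.45 and -0.16 as deposited.

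Proteins that work beside NRF2 and KEAP1 were called in about the shares of all genes. Of 17 listed partners and regulators, 14 were tested, 6 were called higher, 4 lower and 4 did not pass, where 40.6% of all genes were higher and 35.4% lower (median log2 fold change 0.08, beside 0.033 over all genes). Cul3, the scaffold of the ligase that KEAP1 serves, rose from 25.5 ± 2.67 to 45.0 ± 3.52 FPKM (SD, n = 3; log2 fold change 0.80, limma adjusted p = 2.84e-06). Gsk3b, a kinase that marks NRF2 for a second degradation route, had the largest log2 fold change upward among the tested genes of the list, from 15.1 ± 1.88 to 33.7 ± 1.43 FPKM (log2 fold change 1.11). Both rises shrank with the length and GC trend removed, to 0.29 and 0.52, and still passed. Sqstm1, the autophagy receptor p62 that can sequester KEAP1, fell from 1180 ± 36.4 to 606 ± 20.4 FPKM (log2 fold change -0.96, limma adjusted p = 4.38e-08); it shares 20.9% of its sequence words with Mrnip.

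The small MAF partners did not move together. Mafg rose from 20.8 ± 0.502 to 30.1 ± 0.709 FPKM (log2 fold change 0.51), and Maff fell from 6.85 ± 0.844 to 3.46 ± 0.275 FPKM (-0.81). Bach1, a repressor that competes with NRF2 at antioxidant response elements and is best known for silencing Hmox1, was called higher at 6.12 ± 0.394 against 4.91 ± 0.439 FPKM (log2 fold change 0.27, limma adjusted p = 0.00743). This call did not keep its direction: with the trend removed Bach1 had a log2 fold change of -0.19 and passed as lower (adjusted p = 0.0103), and after quantile normalization it did not pass (0.14). The ratio of Hmox1 to Bach1 was 23.8, 23.4 and 28.6 in DMEM and 12.2, 13.5 and 14.2 in RPMI-1640, 1.90-fold higher in DMEM as deposited. That difference was mostly absent with the trend removed, where Hmox1 and Bach1 had log2 fold changes of -0.30 and -0.19. Nfe2l1, the NRF2 relative that controls proteasome genes, rose from 112 ± 3.83 to 130 ± 0.667 FPKM (0.21); it was chosen after its values were seen.

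Hmox1, heme oxygenase 1, which breaks heme into biliverdin, iron and carbon monoxide, was at 124, 120 and 126 FPKM in DMEM and at 80.3, 79.6 and 83.6 FPKM in RPMI-1640. The groups stood well apart, at 1.52-fold higher in DMEM. The log2 fold change was -0.59 (SE 0.045, 95% interval -0.69 to -0.50, limma adjusted p = 4.02e-07), or -0.30 with the length and GC trend removed, where it still passed (adjusted p = 5.71e-06). The gene (ENSMUSG00000005413.8) is at chr8:75093621-75100589 (plus strand), and none of its sequence words occurred in transcripts of other genes.

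Nqo1, a quinone reductase and the most used readout of NRF2, was the lowest of the 10 in both media. It stood at 5.45, 3.84 and 4.17 FPKM in DMEM and at 4.54, 5.31 and 4.46 FPKM in RPMI-1640, from 220 to 379 reads per library. The media overlapped, and the log2 fold change of 0.082 (SE 0.11) had a 95% interval from -0.15 to 0.32 (limma adjusted p = 0.493). The gene (ENSMUSG00000003849.8) is at chr8:107388225-107403206 (minus strand). Falls beyond -0.15 and rises beyond 0.32 lie outside the 95% interval, which covers only the values as deposited. The log2 fold change was 0.24 (SE 0.123) after scaling to a common total and 0.21 (SE 0.0927) without DMEM replicate 1. After quantile normalization it was -0.051, and none of these passed. Nqo1 also varied most among the DMEM libraries, with a coefficient of variation of 19.0%, against 1.26% for Srxn1.

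Osgin1, an oxidative stress response gene, was at 17.4, 18.5 and 19.3 FPKM in DMEM and at 18.7, 20.6 and 22.0 FPKM in RPMI-1640. The groups overlapped, and the log2 fold change of 0.14 (95% interval -0.0047 to 0.29) did not pass (limma adjusted p = 0.0722). It did pass, as higher, with the replicate number as a block (adjusted p = 0.0164), without DMEM replicate 3 (0.0273), without RPMI-1640 replicate 1 (0.0230), after scaling to a common total (log2 fold change 0.31) and once the length and GC trend was taken out (0.70, or 0.51 with the length of its longest annotated transcript). The gene (ENSMUSG00000074063.10) is at chr8:119434124-119446256 (plus strand). The FPKM steps imply that the authors used a length of 687 bases for Osgin1, while its longest GENCODE transcript has 2302 bases, so its level relative to other genes is uncertain.

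**Figure D2:**
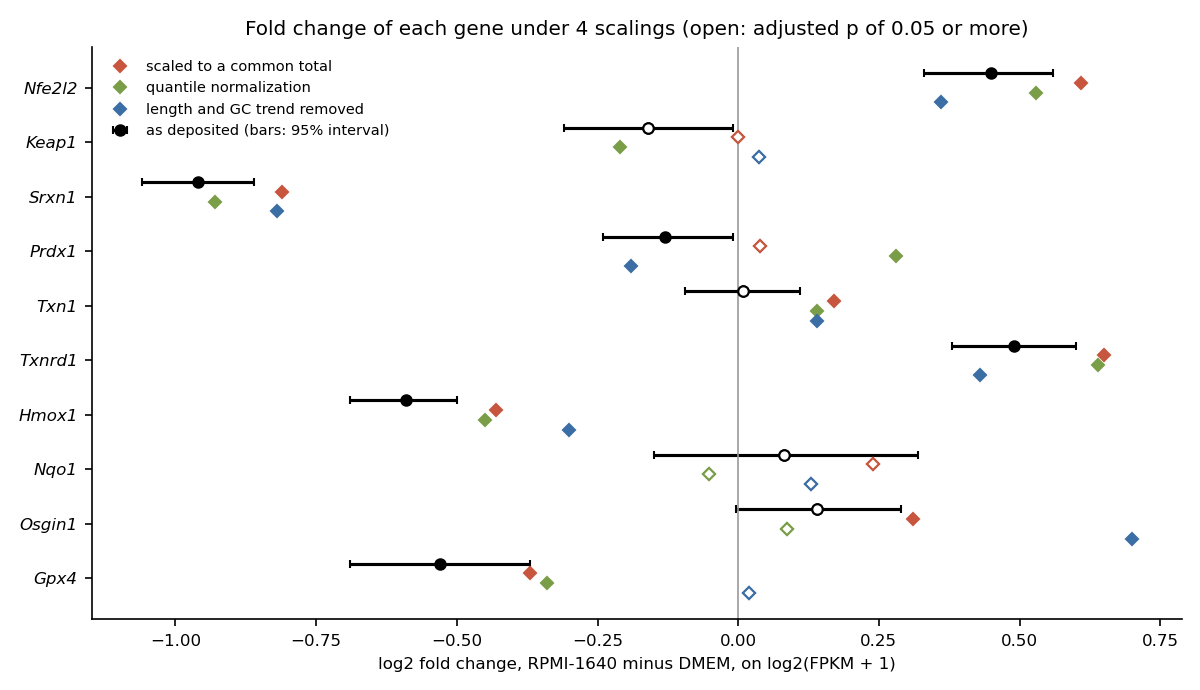
Log2 fold change (RPMI-1640 minus DMEM, on log2(FPKM + 1)) of the 10 genes as deposited with 95% intervals, and under 3 other scalings; open symbols did not pass. Nfe2l2, Txnrd1, Srxn1 and Hmox1 keep their side of 0 and pass under all 4. Osgin1 and Txn1 also lie above 0 under all 4 but pass under only some. Prdx1 lies at -0.13 as deposited and 0.28 after quantile normalization. Gpx4 lies at -0.53 as deposited and 0.019 with the trend removed.

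In the thioredoxin chain, the reductase rose and thioredoxin itself did not pass. Txnrd1 was at 112, 113 and 102 FPKM in DMEM and at 157, 151 and 151 FPKM in RPMI-1640. Every RPMI-1640 library was above every DMEM library. The means were 109 ± 6.17 and 153 ± 3.54 FPKM (SD, n = 3), 1.40-fold higher in RPMI-1640, and the log2 fold change was 0.49 (SE 0.051, 95% interval 0.38 to 0.60, limma adjusted p = 4.89e-06). The gene (ENSMUSG00000020250.10) is at chr10:82833951-82897712 (plus strand), and its span overlaps Eid3 on the same strand and Gm38560 and Gm47073 on the other. Txn1 was at 293, 271 and 276 FPKM in DMEM and at 285, 277 and 283 FPKM in RPMI-1640. These values interleave, and the log2 fold change of 0.0085 had a 95% interval from -0.095 to 0.11 (limma adjusted p = 0.876). Txn1 was called higher after scaling to a common total (0.17), after quantile normalization (0.14) and on removal of the trend (0.14). The gene (ENSMUSG00000028367.5) is at chr4:57943373-57956411 (minus strand).

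The ratio of Txnrd1 to Txn1 in the same library was 0.381, 0.418 and 0.370 in DMEM and 0.552, 0.545 and 0.534 in RPMI-1640. It was 1.40-fold higher in RPMI-1640, with no overlap. For Txnip, which binds and inhibits thioredoxin, the ratio to Txn1 went from 0.0465, 0.0438 and 0.0471 in DMEM to 0.0812, 0.0836 and 0.0820 in RPMI-1640. Both differences were smaller with the trend removed. There Txnrd1, Txnip and Txn1 had log2 fold changes of 0.43, 0.75 and 0.14, against 0.49, 0.81 and 0.0085 as deposited. The mitochondrial counterparts, chosen after their values were seen, went the other way from Txnrd1 as deposited. Txnrd2 fell from 18.9 ± 1.45 to 12.7 ± 0.536 FPKM (log2 fold change -0.54) and Txn2 from 160 ± 10.3 to 128 ± 6.35 FPKM (-0.32), of which Txn2 was at 0.029 and did not pass with the trend removed (limma adjusted p = 0.460). The difference between the cytosolic and mitochondrial genes was not itself tested.

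**Figure D3:**
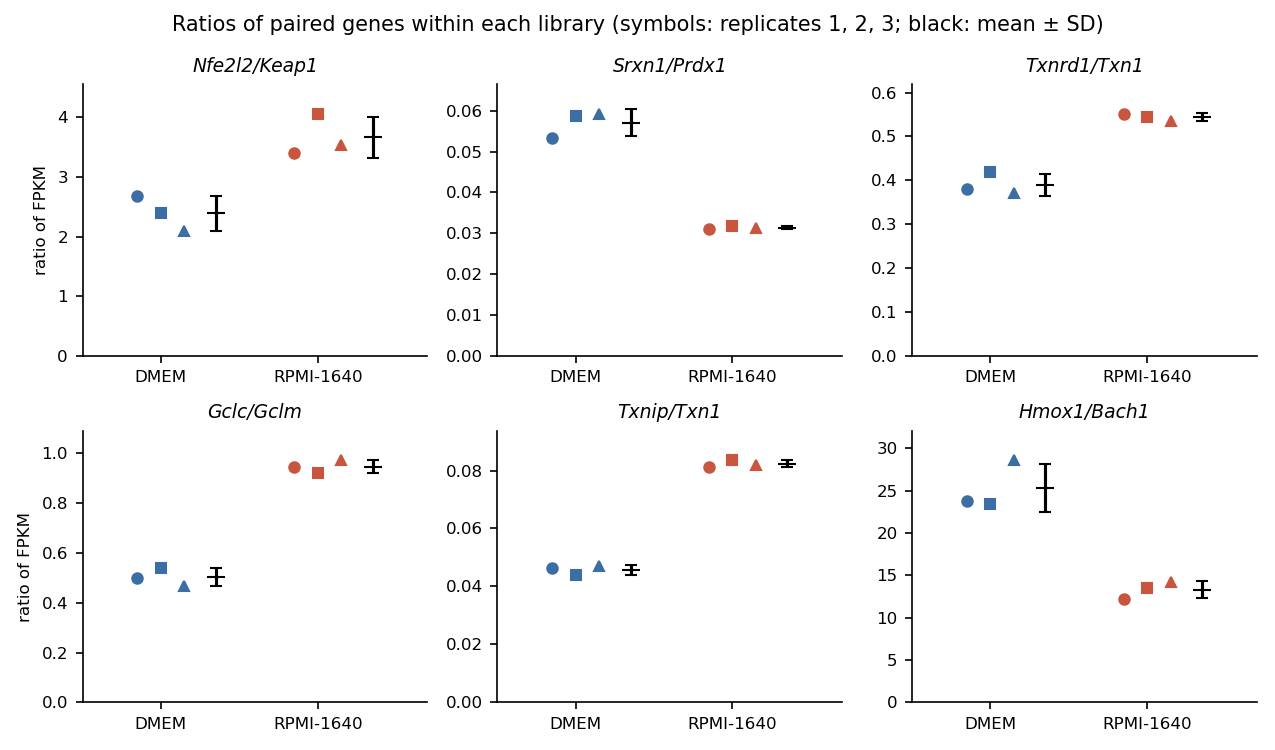
Ratio of the FPKM of 2 genes within each library for 6 pairs, with the mean ± SD of each medium in black (y axes start at 0). In each pair the 3 libraries of a medium do not overlap those of the other. Among all single genes tested 79.0% had no overlap, and the share over all pairs of genes was not computed. The pairs were chosen by name and not by a rule. The Srxn1 to Prdx1 ratio lies at 0.0534 to 0.0593 in DMEM and 0.0311 to 0.0319 in RPMI-1640.

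Srxn1, the peroxiredoxin repair enzyme, had the largest fall of the 10. It was at 50.7, 51.9 and 51.5 FPKM in DMEM and at 25.5, 26.6 and 25.6 FPKM in RPMI-1640. The libraries of a medium lay close together, and DMEM was 1.98-fold higher. The log2 fold change was -0.96 (SE 0.046, 95% interval -1.06 to -0.86, limma adjusted p = 2.34e-08) and ran from -0.99 to -0.79 over the alternatives. The gene (ENSMUSG00000032802.8) is at chr2:152105516-152111376 (plus strand), with 0.7% of its sequence words shared with other genes.

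Prdx1, its substrate and the most abundant of the 10, was at 948, 884 and 869 FPKM in DMEM and at 818, 835 and 822 FPKM in RPMI-1640. The DMEM libraries lay above the RPMI-1640 libraries by a margin smaller than their own spread, and the log2 fold change of -0.13 (SE 0.052, 95% interval -0.24 to -0.010) only just passed (limma adjusted p = 0.0466). The call was lost without DMEM replicate 1 (adjusted p = 0.195) and without any one RPMI-1640 library (0.142, 0.108 and 0.101 for replicates 1, 2 and 3), and the direction turned on scaling to a common total (log2 fold change 0.039) and after quantile normalization (0.28, passing as higher). Of its sequence words, 17.5% occur in 59 other genes, many of them unnamed Gm loci such as Gm21399, so its level is uncertain. The gene (ENSMUSG00000028691.12) is at chr4:116685544-116700822 (plus strand). Within a library Srxn1 was 0.0571 ± 0.00324 of Prdx1 in DMEM and 0.0314 ± 0.000437 in RPMI-1640 (SD, n = 3), 1.82-fold higher in DMEM. With the trend removed Srxn1 and Prdx1 had log2 fold changes of -0.82 and -0.19, against -0.96 and -0.13 as deposited.

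Of the other peroxiredoxins, Prdx2, Prdx3, Prdx4 and Prdx6 were named after their values were seen. All 6 family members, Prdx1 among them, were called lower as deposited and with the length and GC trend removed, where 35.4% and 36.8% of all genes were lower. Only 2 of 6 (Prdx2 and Prdx5) were called lower on scaling to a common total, where Prdx1 and Prdx3 had positive log2 fold changes of 0.039 and 0.0017, and 3 of 6 after quantile normalization (25.0% and 37.7% of all genes). Without RPMI-1640 replicate 1, 4 of 6 were called lower (not Prdx1 or Prdx3). Prdx5, of mitochondria and peroxisomes, fell from 77.9 ± 6.19 to 42.1 ± 3.31 FPKM (log2 fold change -0.87, or -0.38 after trend removal), and Prdx2, a cytosolic form, from 180 ± 8.63 to 124 ± 2.48 FPKM (-0.53, or -0.33); 31.1% of the words of Prdx2 are shared, with Tdpx-ps1, Junb and Rnaseh2a among others. Prdx3, Prdx4 and Prdx6 had log2 fold changes of -0.16, -0.26 and -0.19.

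On the list of other thioredoxin, peroxiredoxin and glutaredoxin genes, 14 of 22 were called lower, 3 higher and 5 did not pass, where 35.4% of all genes were lower and 40.6% higher (median log2 fold change -0.22, beside 0.033 over all genes). The 14 include Prdx2, Prdx3, Prdx4, Prdx5, Prdx6, Txn2 and Txnrd2, already described above. Scaled to a common total, 9 were lower and 5 higher, where all genes gave 25.0% and 51.5%. Nxn, nucleoredoxin, fell from 19.3 ± 1.39 to 8.84 ± 0.260 FPKM (log2 fold change -1.04), and Glrx, cytosolic glutaredoxin, from 8.20 ± 0.197 to 4.02 ± 0.300 FPKM (-0.88). Txnip rose from 12.8 ± 0.879 to 23.2 ± 0.0415 FPKM (0.81); an antisense gene, Gm15441, overlaps it and 19.8% of its words are shared.

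Gpx4 was at 413, 388 and 482 FPKM in DMEM and at 284, 292 and 309 FPKM in RPMI-1640. All DMEM libraries were higher, with DMEM replicate 3 the highest, and DMEM was 1.45-fold higher. That library, the only one whose title ends in L3 and not L2, was also the highest in DMEM for Keap1, Hmox1 and Osgin1. For Nfe2l2, Txnrd1 and Prdx1 it was the lowest in DMEM, and for Nqo1, Srxn1 and Txn1 it lay between the others. The log2 fold change of Gpx4 was -0.53 (SE 0.073, 95% interval -0.69 to -0.37, limma adjusted p = 4.52e-05), but it was 0.019 and did not pass with the length and GC trend removed (adjusted p = 0.617). The gene (ENSMUSG00000075706.10) is at chr10:80047166-80056439 (plus strand). It is short and rich in GC (986 bases by the FPKM steps, 60.2% GC), and 66.5% of its sequence words also occur in Gpx4-ps2 or AC122253.3, so its level is uncertain. Across 10565 genes the log2 fold change had a Spearman correlation of 0.464 with length and -0.470 with GC content, given as a description over genes of the same 6 libraries.

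The listed selenoproteins other than Txnrd1 and Gpx4 were also called in about the shares of all genes. Txnrd2, Txnrd3 and Sephs2 were counted in other lists instead. Of 19 listed, 17 were matched by symbol and 12 tested; 4 were called higher, 5 lower and 3 did not pass, where 40.6% of all genes were higher and 35.4% lower (median -0.056). Selenoh, listed as 2700094K13Rik, rose from 43.7 ± 3.35 to 77.0 ± 2.14 FPKM (log2 fold change 0.80), while Msrb1, a methionine sulfoxide reductase, and Selenop, the selenium carrier listed as Sepp1, had log2 fold changes of -0.77 and -0.76; Ccdc152 overlaps Selenop on the other strand. Gpx1, the cytosolic peroxidase, had 77.9 ± 8.33 FPKM in DMEM against 88.1 ± 7.81 in RPMI-1640 without passing (0.18, limma adjusted p = 0.0586), although it passed as higher with the replicate block (adjusted p = 0.00073), with the trend removed (log2 fold change 0.66), after scaling to a common total (0.34), after quantile normalization (0.30), without DMEM replicate 3 (0.26) and without RPMI-1640 replicate 2 (0.23). In the machinery that makes selenoproteins 4 of 10 genes were higher, 2 lower and 4 did not pass, against the same shares of all genes (median 0.028). After trend removal the median was 0.20 and 7 were higher, where 37.1% of all genes were higher. Sepsecs, which makes selenocysteinyl-tRNA, rose from 5.50 ± 1.10 to 9.54 ± 0.510 FPKM (0.71), and Sephs1 and Secisbp2l had log2 fold changes of 0.55 each, that of Secisbp2l falling to 0.023 with the trend removed.

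Other targets of NRF2 went both ways. Of 28 listed, 26 were tested, 13 were called lower, 8 higher and 5 did not pass, where 35.4% of all genes were lower and 40.6% higher (median -0.24, or -0.22 with the trend removed, beside 0.033 over all genes). Gsta4 and Gstm1, glutathione transferases, and Ephx1, microsomal epoxide hydrolase, were the most changed as deposited, with log2 fold changes of -1.83, -1.06 and -1.33. Gstm1 shares 33.6% of its words with relatives such as Gstm2. Gclc, the catalytic subunit of the enzyme that starts glutathione synthesis, rose from 11.8 ± 1.32 to 20.4 ± 0.505 FPKM (log2 fold change 0.74, limma adjusted p = 3.51e-06). Its partner Gclm, the modifier subunit, was at 23.6 ± 1.15 and 21.6 ± 0.139 FPKM and did not pass (-0.12, limma adjusted p = 0.0567). Gclm passed as lower with the replicate block (limma adjusted p = 0.0339) and with the trend removed (-0.30). It also passed as lower after quantile normalization (-0.15) and without DMEM replicate 3 (-0.16). After scaling to a common total it was at 0.037 and did not pass. The ratio of Gclc to Gclm was 0.498, 0.538 and 0.468 in DMEM and 0.944, 0.919 and 0.971 in RPMI-1640, 1.88-fold higher in RPMI-1640. With the trend removed Gclc had a log2 fold change of 0.62 and Gclm of -0.30. Slc7a11, the cystine transporter, was called higher at 18.4 ± 1.22 against 12.9 ± 1.58 FPKM (0.49) but lower with the trend removed (-0.33, limma adjusted p = 3.27e-05).

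Of 16 genes that act on superoxide, peroxides or lipid peroxidation, 12 were tested, with 6 called lower, 2 higher and 4 not passing, where 35.4% of all genes were lower and 40.6% higher (median -0.22, or -0.23 with the trend removed). Por, cytochrome P450 reductase, fell from 46.3 ± 3.02 to 24.8 ± 1.08 FPKM (log2 fold change -0.87). Lpcat3, which places polyunsaturated fatty acids into phospholipids, fell from 69.1 ± 0.671 to 38.7 ± 0.832 FPKM (-0.82). Gch1, which starts tetrahydrobiopterin synthesis, fell from 2.84 ± 0.492 to 1.49 ± 0.213 FPKM (-0.63).

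**Figure D4:**
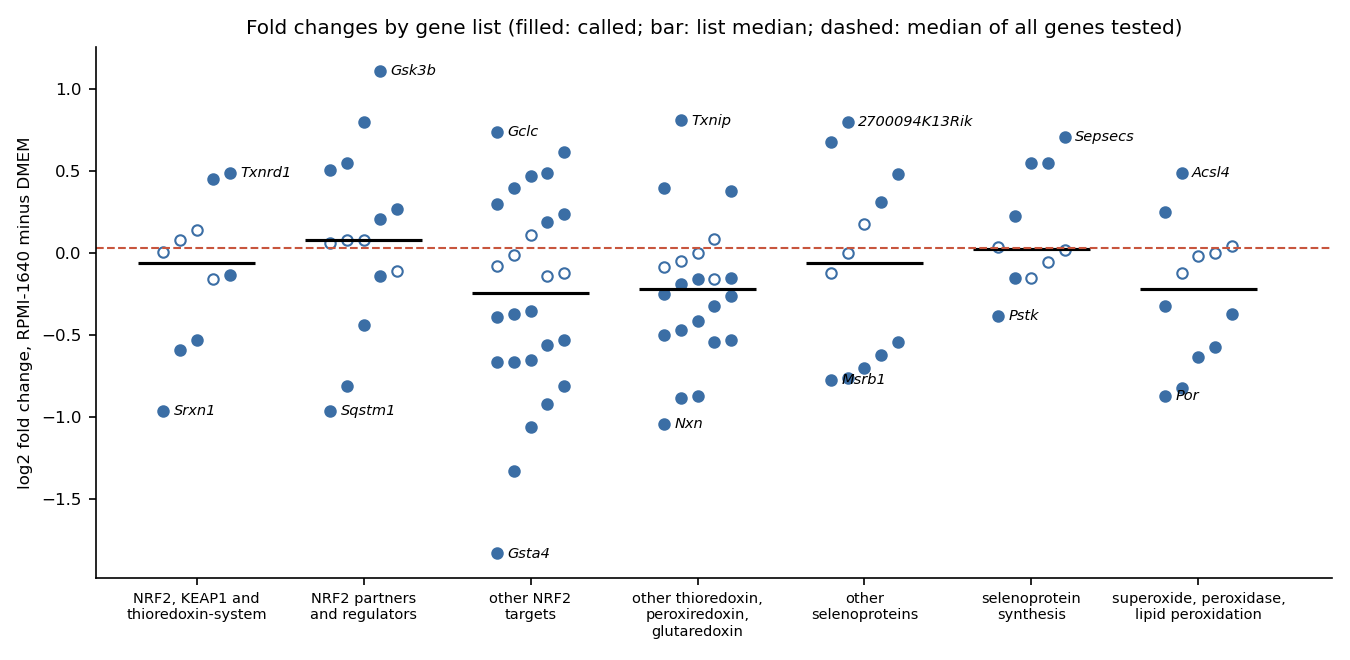
Log2 fold change of each tested gene (points; filled where called) in the 10 genes and in 6 related lists, with the median of each list (bar) and of all genes tested (dashed line, 0.033). The lists of other NRF2 targets and of other thioredoxin, peroxiredoxin and glutaredoxin genes have medians of -0.24 and -0.22.

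On the FPKM scale, which is per length, the order of the 10 was similar in both media. In DMEM it ran from Prdx1 (900 ± 42.2) over Gpx4 (428 ± 49.0), Txn1 (280 ± 11.6), Hmox1, Txnrd1, Srxn1, Nfe2l2, Keap1 and Osgin1 to Nqo1 (4.48 ± 0.852). In RPMI-1640 Txnrd1 stood above Hmox1, Nfe2l2 above Srxn1 and Osgin1 above Keap1, though the place of Osgin1 rests on the 687 bases used for its length. Neighbours whose libraries overlapped were Srxn1 and Nfe2l2 in DMEM, and Gpx4 and Txn1 as well as Osgin1 and Keap1 in RPMI-1640.

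The genes closest to Nfe2l2 in pattern were Ctps, Cdc5l and Tmtc4, by the root mean square difference of centred log2(FPKM + 1) values over the 6 libraries (0.0155, 0.0202 and 0.0217, among 8279 candidates). Among those close to Keap1 were Cactin and Gtf2h4 (0.0240 and 0.0256). Cactin was called lower (log2 fold change -0.17), but its sign turned with the trend removed (0.17) and it did not pass without DMEM replicate 3 or without RPMI-1640 replicate 2 or 3 (limma adjusted p from 0.0582 to 0.102).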

How the data were processed

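Total RNA of the 6 samples was extracted with Trizol and made into mRNA-seq libraries with a SMARTer kit, per the labels' protocols. The authors deposited FPKM per gene and library; the builds GRCm38 and mm10 are named in the submitters' processing notes, and an aligner, counter, annotation or strand setting is not given in the sources used here. Values were used as deposited. The test, for genes averaging 1 FPKM or more, was limma 3.58.1 under R 4.3.3 (lmFit, eBayes with trend) on log2(FPKM + 1), two-sided, with medium as the only term; this scale understates the change of low genes. Whole reads were recovered from the FPKM steps for all 10624 tested genes within 0.001 and used for depth and for limma-voom. The length and GC trend was removed with natural splines (5 degrees of freedom each) of log2 length and of GC content, available for 99.4% of tested genes (GENCODE M21). Deviations from the group means correlated at 0.151, 0.150 and 0.382 between libraries of the same replicate number, all over 0.1. The main fit was unpaired. Replicate numbers were treated as pairs, from the data alone, only in the alternatives with a replicate block. Replicates 1 and 2 were not told apart by number, since the unmatched pairs DMEM 1 with RPMI-1640 2 and DMEM 2 with RPMI-1640 1 had 0.131 and 0.137; with the trend removed the same-number values were 0.0580, 0.0416 and 0.154, so the pairing is uncertain. Shared sequence is the share of 32-base words of the longest transcript found in other genes. The members and lists were chosen with earlier results of these data known. The naming rule took the 10 members, the 3 most changed called genes of each list, 9 genes acting directly with the members and the 3 nearest in pattern to Nfe2l2 and to Keap1; 1 of these genes is not reported here. Python 3.11.15 with numpy 2.4.6, pandas 2.3.3, scipy 1.17.1 and matplotlib 3.10.9 was used for the rest.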

Additional observations from a re-analysis of the deposited data

How the results depend on the processing

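Nfe2l2, Txnrd1, Srxn1 and Hmox1 kept their direction and their call under all 16 alternatives, which covered the pseudocount, filters, scalings, the trend, the replicate block, limma-voom and each left-out library. The other 6 genes did not under every one. Genes called over the whole table numbered 8078, from 7454 to 8011 with a library left out and 8432 with the replicate block. With the replicate block 3 of the 10 genes were called higher and 5 lower, Osgin1 and Keap1 being added; among the genes named in the results it also made calls of Gclm and Gpx1 and changed no other. Of the 10, 4 were called higher with values scaled to a common total, after quantile normalization, and with the length and GC trend removed (also with annotated lengths, an alternative chosen after seeing the data, and with the block). With a library left out, the 10 held 2 or 3 higher and 3 or 4 lower. For the lists, the common total gave 5 higher and 9 lower in the thioredoxin list and 1 lower in selenoprotein synthesis, which also had 1 lower with no filter and 1 to 2 with a library left out; trend removal gave 7 higher there, with and without the block or annotated lengths, and annotated lengths left 1 higher in the superoxide and lipid peroxide list.

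Signs that turned were these, as log2 fold changes. With the common total they were Prdx1 0.039, Prdx3 0.0017, Gclm 0.037 and Gtf2h4 0.038. After quantile normalization they were Prdx1 0.28 and Nqo1 -0.051. With the trend removed, with or without the block, they were Keap1 0.037, Gpx4 0.019, Txn2 0.029, Bach1 -0.19, Slc7a11 -0.33, Cactin 0.17 and Gtf2h4 0.24, and with annotated lengths Keap1 0.083, Bach1 -0.091, Slc7a11 -0.24, Cactin 0.18 and Gtf2h4 0.28, with Gpx4 at -0.008 and not passing. With a library left out, Nqo1 ran from -0.0026 to 0.21 and Txn1 from -0.014 to 0.042. The cause was not tested. Among the 10, depth limits Nqo1 most, at 220 reads in the lowest library; of the list genes named, Gch1 and Glrx had 158 and 198. Nqo1 could not be tested at a mean of at least 5 FPKM.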
